A study of Mus musculus with 15 samples.

Results

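The homeobox genes Uncx, Hmx1, Hmx2 and Hmx3 were described through the peak intervals of FLAG, H3K27me3 and EZH2 that lay within 40 kb of their positions in mouse build mm9. Those positions are known to 10 kb and were 140.02 Mb on chromosome 5 for Uncx, 35.73 Mb on chromosome 5 for Hmx1 and 138.70 Mb on chromosome 7 for the neighbours Hmx2 and Hmx3. The 4 genes thus gave 3 loci, and 9 of the 2466 intervals in the 3 lists met the rule. Each list contributed 3 of them, 1 per locus, out of 438 FLAG, 1126 H3K27me3 and 902 EZH2 intervals. The loci were chosen by FLAG width, since Uncx and Hmx1 hold 2 of the 3 widest FLAG intervals, and Hmx2 and Hmx3 were added as family members. Widths and their ratios are therefore given as descriptions and without a test. The gene names come from the stated positions, since the lists carry no names, and were not checked here against an mm9 annotation.

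The cells were mouse embryonic fibroblasts of an EED floxed line that stably expressed wild-type EZHIP from a lentivirus, and no treatment is named for them. Chromatin was immunoprecipitated with antibodies to FLAG, H3K27me3 or EZH2, with 1 library each and no replicates. The H3K27me3 list is named residual H3K27me3, and H3K27me3 below means the intervals of that list. No list from cells without EZHIP was read, so these widths are not shown to be those of the mark without the inhibitor. FLAG was read as the tag on EZHIP because the series names EZHIP as a profiled target. The fibroblasts receive EZHIP from the virus, so the intervals describe a cell that was made to express it, and positions alone offer no check of the labelled cell type. The other 12 libraries were not used here, so nothing below compares conditions, and the lists give positions only, with depth, height and enrichment unknown.

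EZH2 is the catalytic subunit of Polycomb repressive complex PRC2, which methylates lysine 27 of histone H3. The complex is recruited to unmethylated CpG islands of developmental genes, and binding of its EED subunit to H3K27me3 stimulates it to extend the mark along the chromatin. EZHIP is a protein inhibitor of PRC2. Genes for homeodomain transcription factors that are silent in a cell type are textbook PRC2 targets. Uncx is a paired-type homeodomain factor that marks the caudal part of each somite and is needed for the pedicles and proximal ribs. The Hmx genes, also called Nkx5, encode a small family of homeodomain factors. Hmx1 acts in sensory ganglia and in development of the eye and outer ear, and Hmx2 and Hmx3 act in the vestibular inner ear and the hypothalamus.

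The promoters of Uncx, Hmx3 and Hmx2 are shown because CpG-dense sequence is known to recruit PRC2, and the genes differed in CpG density. These 3 genes matched a RefSeq promoter table of build GRCm38.p6, which gives 300 bp per start site, 250 bp before it and 50 bp after it. Hmx2 has both a first and a second annotated start, so there are 4 windows. All lie on the plus strand, at chr5:139543648-139543947 for Uncx, chr7:131542713-131543012 for Hmx3, and chr7:131548507-131548806 and chr7:131554043-131554342 for Hmx2. These are positions in GRCm38.p6 and not in mm9, so whether a window falls inside an interval was not read. Each window is written 5′ to 3′, and capitals mark CG dinucleotides.
Uncx: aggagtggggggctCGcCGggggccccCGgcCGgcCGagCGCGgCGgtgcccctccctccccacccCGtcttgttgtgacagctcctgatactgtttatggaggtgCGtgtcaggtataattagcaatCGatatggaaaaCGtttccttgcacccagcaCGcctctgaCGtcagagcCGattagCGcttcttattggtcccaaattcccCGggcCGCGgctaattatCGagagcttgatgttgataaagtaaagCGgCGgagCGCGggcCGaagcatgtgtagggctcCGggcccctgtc
Hmx3: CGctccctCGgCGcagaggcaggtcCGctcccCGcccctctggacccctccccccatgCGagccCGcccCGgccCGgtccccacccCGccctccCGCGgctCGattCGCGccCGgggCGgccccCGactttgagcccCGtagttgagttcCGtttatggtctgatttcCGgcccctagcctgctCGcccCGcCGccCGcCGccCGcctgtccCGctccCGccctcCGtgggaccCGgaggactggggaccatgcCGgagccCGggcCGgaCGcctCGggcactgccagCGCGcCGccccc
Hmx2 first start: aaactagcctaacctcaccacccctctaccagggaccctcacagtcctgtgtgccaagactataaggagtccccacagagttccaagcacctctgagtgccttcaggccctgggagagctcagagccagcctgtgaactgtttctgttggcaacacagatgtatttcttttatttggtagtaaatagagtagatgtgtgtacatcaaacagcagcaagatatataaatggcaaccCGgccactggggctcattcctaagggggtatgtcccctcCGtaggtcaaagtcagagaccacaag
Hmx2 second start: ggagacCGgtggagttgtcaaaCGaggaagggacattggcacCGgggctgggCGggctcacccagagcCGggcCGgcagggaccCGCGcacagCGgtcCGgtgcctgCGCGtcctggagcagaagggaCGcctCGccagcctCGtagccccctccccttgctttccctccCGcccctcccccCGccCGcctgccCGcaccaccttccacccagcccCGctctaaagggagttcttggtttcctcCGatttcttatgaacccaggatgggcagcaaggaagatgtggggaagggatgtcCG

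Hmx3 had 39 CG dinucleotides, and only 4.45% of 32841 RefSeq mouse promoter windows held as many. Uncx had 26 (16.9% of windows held as many) and the second start of Hmx2 had 22 (23.1%). The first start of Hmx2 was unlike the rest, with 2 CG dinucleotides, and 85.9% of all windows held at least that number. The median over all windows was 7. The CpG-poor window is thus an alternative start beside a CpG-rich one in the same gene. TAATTA, a core sequence bound by many homeodomains and identical on both strands, occurred 2 times in the Uncx window, with first bases 133 and 30 bases before the start site, and in none of the Hmx3 and Hmx2 windows. It occurred at least once in 5.29% of all windows and 2 or more times in 0.490%. CAAGTG, a sequence bound by Hmx and other NK-type homeodomains, was searched on both strands. It was in none of the 4 windows and in 13.6% of all windows. By their letters alone, the motifs cannot share a base with a CG dinucleotide or with each other. A match is only a run of letters, and no binding to it was measured.

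**Figure D1:**
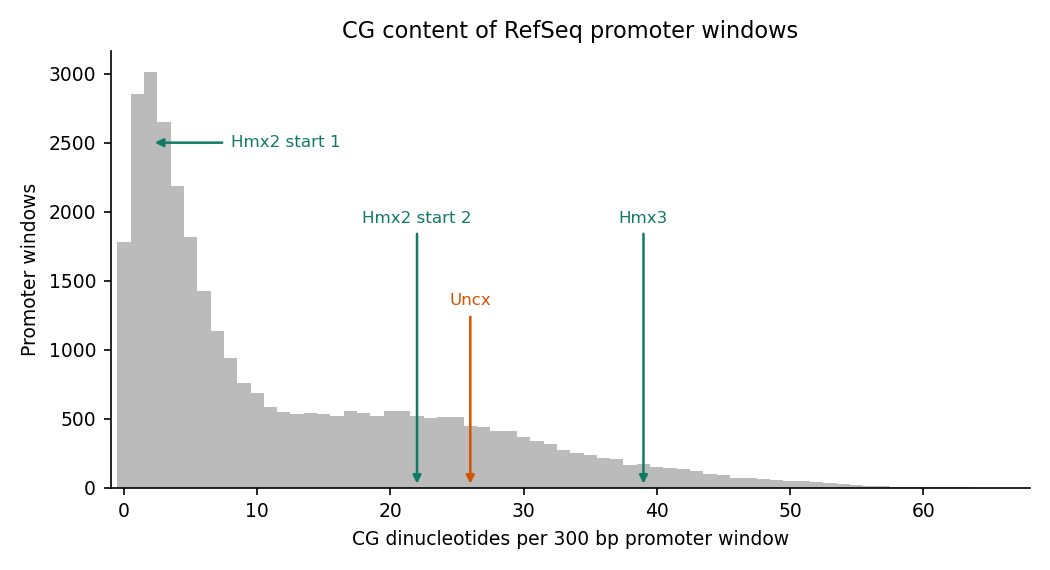
Number of RefSeq promoter windows of 300 bp (y axis) by their count of CG dinucleotides (x axis), with arrows at the 4 windows of Uncx, Hmx2 and Hmx3. Hmx3 lies far to the right at 39, and the first start of Hmx2 lies in the CpG-poor mass of the distribution at 2.

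At Uncx all 3 signals formed a single interval with nearly the same edges. FLAG spanned chromosome 5 from 140011201 to 140034599, a width of 23399 bp. H3K27me3 spanned 140010201 to 140035199, or 24999 bp. EZH2 spanned 140009401 to 140035799, or 26399 bp. The order of width was thus FLAG, H3K27me3, EZH2, each nested in the next. FLAG stopped 1800 bp short of the EZH2 edge at the lower coordinate and 1200 bp short at the higher coordinate. H3K27me3 stopped 800 and 600 bp short of the same EZH2 edges. Since edges lie on a 200 bp grid, the smallest of these distances are only a few steps.

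At Hmx1 FLAG and EZH2 were again single nested intervals, but H3K27me3 ran far past both on one side. FLAG spanned chromosome 5 from 35723601 to 35745399, or 21799 bp. H3K27me3 spanned 35719601 to 35775799, or 56199 bp. EZH2 spanned 35719601 to 35748999, or 29399 bp. H3K27me3 and EZH2 began on the same grid line, and H3K27me3 ended 26800 bp beyond EZH2 at the higher coordinate. FLAG stopped 4000 and 3600 bp short of the EZH2 edges, so it lay near the middle of EZH2 and in the lower part of the methylated interval.

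At Hmx2 and Hmx3 each list had a single interval near the position given for the pair of genes, so the lists cannot tell them apart. FLAG ended just below that position, which is known to 10 kb, and H3K27me3 and EZH2 passed it by 1999 and 2999 bp. Whether an interval covers both genes was therefore not read. FLAG spanned chromosome 7 from 138683801 to 138699799, or 15999 bp. H3K27me3 spanned 138683401 to 138701999, or 18599 bp. EZH2 spanned 138681601 to 138702999, or 21399 bp. The order of width was the same as at Uncx. FLAG stopped 2200 and 3200 bp short of the EZH2 edges at the lower and higher coordinate, and H3K27me3 stopped 1800 and 1000 bp short.

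**Figure D2:**
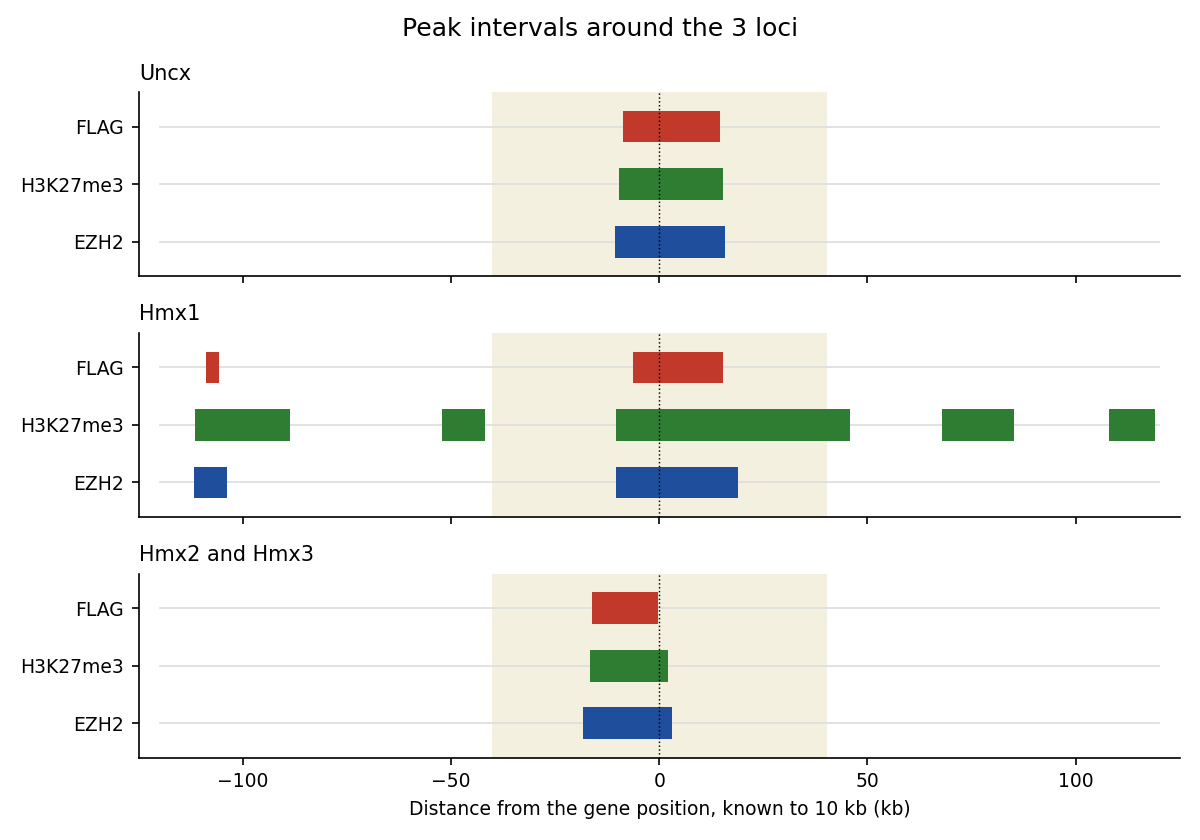
Intervals of FLAG, H3K27me3 and EZH2 (rows) by distance in kb from each gene position, which is known to 10 kb, with the 40 kb window shaded. Uncx and the Hmx2 and Hmx3 locus hold 1 interval per list, whereas H3K27me3 at Hmx1 extends past EZH2 and is flanked by 4 further H3K27me3 intervals.

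FLAG, H3K27me3 and EZH2 occurred together at all 3 loci, which is the common state of FLAG intervals in these lists. All 3 FLAG intervals lay wholly inside an EZH2 interval, as 96.6% of the 438 did, and all 3 overlapped H3K27me3, as 98.6% did. The 3 EZH2 intervals all carried FLAG, against 45.5% of all 902 EZH2 intervals and 92.5% of the 40 that were wider than 20 kb. All 3 EZH2 intervals overlapped H3K27me3, as 95.2% of the list did. The 3 H3K27me3 intervals all carried EZH2, against 71.7% of the list, and all carried FLAG, against 36.1%. The rule asked for intervals near genes already known for wide FLAG, so these counts follow in part from the choice.

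By width, the loci ranked higher in the FLAG list than in the H3K27me3 list. Uncx and Hmx1 were chosen for wide FLAG, so for them this order follows largely from the choice. Uncx had the widest FLAG interval of 438, and Hmx1 ranked 3 and Hmx2 and Hmx3 ranked 14. As a share of the list, 0.228% of FLAG intervals were at least as wide as that of Uncx, 0.685% as that of Hmx1 and 3.20% as that of Hmx2 and Hmx3. For H3K27me3 these shares were 6.22%, 1.51% and 11.3%, and for EZH2 they were 1.33%, 0.887% and 3.88%. Uncx thus led the FLAG list, while 11 EZH2 intervals, that of Hmx1 among them, were wider than its own. When intervals of a list within 5 kb of each other were joined, Uncx ranked 2 and Hmx1 ranked 4 of 428 in the FLAG list. Measured against the median of each list, FLAG at Uncx was 5.85 times, H3K27me3 5.44 times and EZH2 5.08 times as wide. At Hmx1 the multiples were 5.45 for FLAG, 12.2 for H3K27me3 and 5.65 for EZH2, and at Hmx2 and Hmx3 they were 4.0 for FLAG, 4.04 for H3K27me3 and 4.12 for EZH2. The 3 loci held 0.685% of FLAG intervals and 2.76% of FLAG bases. They held 0.266% of H3K27me3 intervals and 1.08% of H3K27me3 bases, and 0.333% of EZH2 intervals and 1.24% of EZH2 bases. The share of bases thus exceeded that of intervals in every list, and the shares also depend on list length, FLAG being the shortest. On chromosome 5, Uncx and Hmx1 together held 16.6% of FLAG bases, 3.51% of H3K27me3 bases and 8.93% of EZH2 bases. They held 4.444% of the FLAG intervals on chromosome 5, 1.399% of the H3K27me3 intervals and 2.597% of the EZH2 intervals. The base shares on chromosome 5 thus also depend on list length. That chromosome held 12.3% of all FLAG bases, 25% of all H3K27me3 bases and 10.0% of all EZH2 bases, and the part of this in the values at Hmx1 was not tested.

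FLAG filled nearly the whole EZH2 interval at Uncx and about the same, smaller share of it at the Hmx loci. The FLAG to EZH2 width ratio was 0.886 at Uncx, and between 0.872 and 0.901 if the widths are each off by 1 grid step. It was 0.748 at Hmx2 and Hmx3 (0.731 to 0.764) and 0.741 at Hmx1 (0.730 to 0.753), and the ranges of these last loci overlap. Across all 399 sites where 1 FLAG and 1 EZH2 interval met only each other, the median ratio was 0.520 (interquartile range 0.370 to 0.651). Uncx ranked 2, Hmx2 and Hmx3 ranked 40 and Hmx1 ranked 45 of these pairs. A ratio at least as high was found in 0.501%, 10.0% and 11.3% of pairs at Uncx, Hmx2 and Hmx3, and Hmx1.

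The median FLAG to EZH2 ratio was higher in pairs with wider EZH2, so the loci were also set beside intervals of their own size. The median ratio was 0.632 over 30 pairs with EZH2 wider than 20 kb, 0.602 over 90 pairs with EZH2 from 10 to 20 kb and 0.486 over 279 narrower pairs. The spread was large, with an interquartile range of 0.335 to 0.753 in the widest group and 0.362 to 0.620 in the narrowest. Uncx had the highest ratio of the 30 pairs with EZH2 wider than 20 kb. Over the 399 pairs the log2 widths of FLAG and EZH2 had a Pearson correlation of 0.80, given as a description of points that share the same pair of libraries. The EZH2 margin without FLAG had a median of 4100 bp per side among pairs wider than 20 kb (interquartile range 2600 to 7500 bp) and of 1800 bp over all pairs. The margins of 1800 and 1200 bp at Uncx were therefore below that range, and over all pairs, with an interquartile range of 1400 to 2400 bp, one equalled the median and the other lay below the range. Hmx1, with 4000 and 3600 bp, lay close to the median of wide pairs, and Hmx2 and Hmx3, with 2200 and 3200 bp, had one margin below that range and one inside it. In bp, EZH2 exceeded FLAG by 3000 bp at Uncx, 7600 bp at Hmx1 and 5400 bp at Hmx2 and Hmx3, against a median of 3600 bp over all pairs and 8600 bp over the wide ones.

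**Figure D3:**
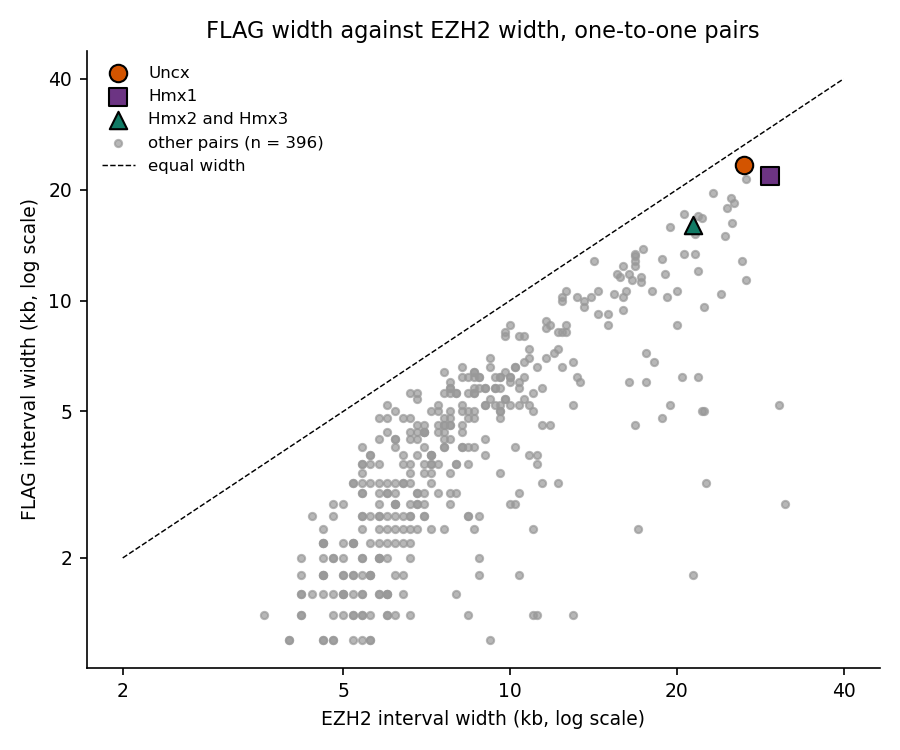
Width of the FLAG interval (y axis, kb, log scale) against that of the EZH2 interval (x axis, kb, log scale) at 399 sites with 1 interval of each, with the 3 loci as large symbols and equal width as a dashed line. Uncx lies closest to the line of equal width among the 30 pairs with EZH2 over 20 kb, and wide EZH2 intervals elsewhere hold FLAG intervals of very different width.

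The loci were also set beside every EZH2 interval wider than 20 kb, with or without FLAG. At the 3 loci the FLAG cover is the width ratio given above as a percent, so only the intervals compared with them differ. FLAG covered 88.6% of EZH2 bases at Uncx, the highest of the 40, then 74.8% at Hmx2 and Hmx3 (rank 10) and 74.1% at Hmx1 (rank 11). The other 37 had a median of 51.7% (interquartile range 22.5 to 72.4%), with 3 at 0%. All 3 loci had a single FLAG interval that covered over 70% of EZH2, a level reached by 35.0% of the 40 intervals and by 7.76% of all 902. Over 80% was reached by Uncx and not by the Hmx loci, and by 10.0% of the 40 intervals. Among the other 37, 27 had 1 FLAG interval and 7 had several. Since FLAG width led to the choice of Uncx and Hmx1, high cover at these loci is partly set by the choice.

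**Figure D4:**
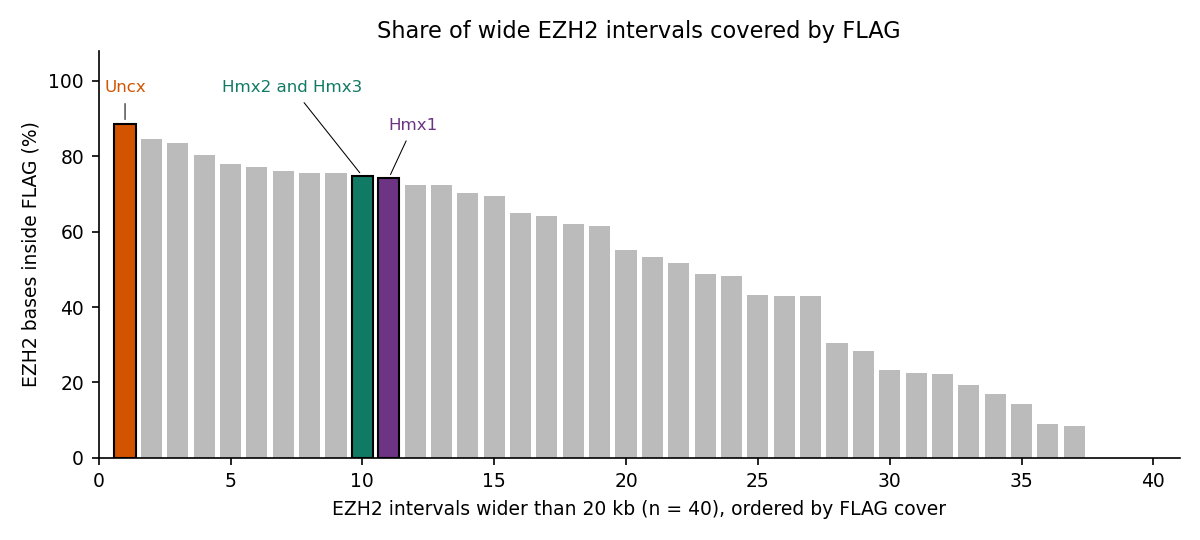
Percent of bases inside FLAG intervals (y axis) for each of the 40 EZH2 intervals wider than 20 kb (x axis, ordered by cover), with the 3 loci in colour. Uncx is first with 88.6%, and the other loci lie at 74.8% and 74.1%, while 3 intervals have none.

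The widest FLAG interval away from these loci gave a comparison of like size. It lay on chromosome 8 from 12382201 to 12404399 and was the second widest of the list. Its widths were 22199 bp for FLAG, 26999 bp for H3K27me3 and 29399 bp for EZH2. EZH2 was therefore as wide at Hmx1 as at this site, and FLAG was 400 bp wider at this site than at Hmx1. The FLAG to EZH2 ratio was 0.741 at Hmx1 and 0.755 at the chromosome 8 site, a difference within the error of the grid. The H3K27me3 to EZH2 ratio was 1.91 at Hmx1 and 0.918 at the chromosome 8 site. Wide methylation was not limited to Hmx1 among such sites, since 4 others of the 12 widest FLAG intervals had a ratio between 1.40 and 2.30. These were 2.30 and 1.85 on chromosome 5, where Hmx1 also lies, 1.75 on chromosome 4 and 1.40 on chromosome 11. At the sites with 2.30 and 1.75 the H3K27me3 interval overlapped 2 EZH2 intervals, and the ratio used only 1 of them. At Hmx1 and at the sites with 1.85 and 1.40 it overlapped 1, so only these are alike.

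H3K27me3 was narrower than EZH2 at Uncx and at Hmx2 and Hmx3, and far wider than EZH2 at Hmx1. The H3K27me3 to EZH2 width ratio was 0.947 at Uncx (0.932 to 0.962 with 1 grid step of error), 0.869 at Hmx2 and Hmx3 (0.852 to 0.887) and 1.91 at Hmx1 (1.89 to 1.93). The median over 764 pairs was 0.900 (interquartile range 0.750 to 1.00) and H3K27me3 was the narrower in 72.4% of them, as at Uncx and at Hmx2 and Hmx3. Only 2.09% of pairs had a ratio as high as Hmx1. Among the 34 pairs with EZH2 wider than 20 kb the median was 0.965 and Hmx1 had the highest value. Counting all 40 EZH2 intervals of that width, also where 1 H3K27me3 interval spanned several EZH2 intervals, Hmx1 ranked 5, and the highest ratio was 2.56. Each of the 4 above it shared its H3K27me3 interval with at least 1 other EZH2 interval. H3K27me3 extended more than 5 kb beyond EZH2 in 2.36% of pairs, and Hmx1 was the 1 locus of 3 where it did. By edges the share was 1.31% of 1528. The extension of 26800 bp at Hmx1 ranked 3 among them, while the opposite edge at Hmx1 was at 0 bp. The methylated overhang at Hmx1 was therefore on one side. At Hmx2 and Hmx3 H3K27me3 fell 2800 bp short of EZH2 in width, a shortfall reached by 2.23% of pairs, and its lower edge, 1800 bp inside EZH2, ranked 1494 of 1528. These edges follow the authors' calls, and how those joined neighbouring intervals is unknown here.

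**Figure D5:**
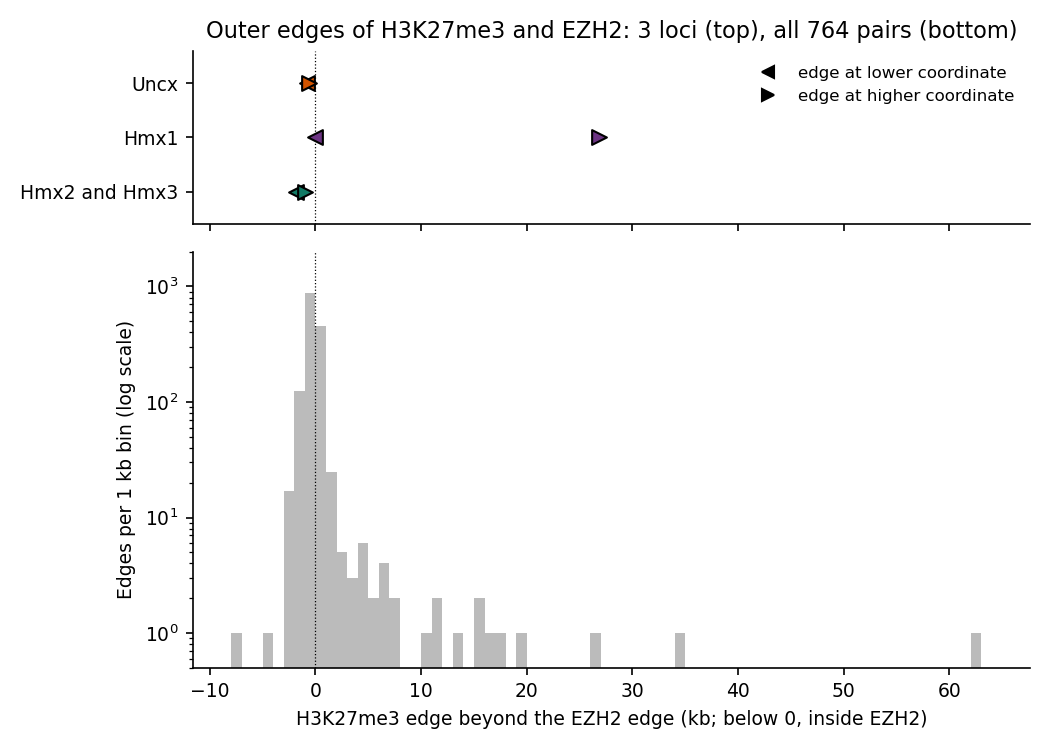
Distance in kb by which the H3K27me3 edge lies beyond the EZH2 edge (x axis), for both edges of each locus (top) and as counts per 1 kb bin on a log scale for the 1528 edges of 764 pairs (bottom). The higher-coordinate edge of Hmx1, at 26.8 kb, lies far from the other 5 edges of the 3 loci, which are between -1800 and 0 bp.

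At Hmx1 FLAG covered much more of EZH2 than of H3K27me3, whereas at the other loci it covered most of both. The FLAG to H3K27me3 width ratio was 0.936 at Uncx (rank 4 of 387 pairs), 0.860 at Hmx2 and Hmx3 (rank 7) and 0.388 at Hmx1 (rank 276), against a median of 0.545 over the pairs. At Hmx1 FLAG covered 74.1% of EZH2 bases but 38.8% of H3K27me3 bases, and no FLAG or EZH2 was called in the 26800 bp of methylated chromatin past the EZH2 edge. At Uncx it covered 88.6% of EZH2 and 93.6% of H3K27me3, and at Hmx2 and Hmx3 it covered 74.8% of EZH2, with H3K27me3 covered to 86%.

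H3K27me3 was also denser around Hmx1 than around the other loci. Within 120 kb on either side of the gene position, a span chosen after the intervals were seen, Hmx1 had 2 FLAG, 5 H3K27me3 and 2 EZH2 intervals, and Uncx and the Hmx2 and Hmx3 locus had 1 of each. H3K27me3 covered 49.0% of those bases at Hmx1, 10.4% at Uncx and 7.75% at Hmx2 and Hmx3. Chromosome 5, where both Hmx1 and Uncx lie, held 12.7% of H3K27me3 intervals and the larger share of H3K27me3 bases given above. Cover was measured around these loci only, so whether that at Hmx1 is unusual for the list or for chromosome 5 was not tested. FLAG covered 10.3% at Hmx1, 9.75% at Uncx and 6.67% at Hmx2 and Hmx3. EZH2 covered 37.4 kb at Hmx1, 26.4 kb at Uncx and 21.4 kb at Hmx2 and Hmx3. Of the 4 further H3K27me3 intervals near Hmx1, the one from 35618401 to 35641199 (22799 bp) overlapped a FLAG interval of 2999 bp and an EZH2 interval of 7999 bp. The remaining ones, from 35677801 to 35688199, from 35798001 to 35815199 and from 35838001 to 35848999, had neither. The first of them ended 41801 bp before the Hmx1 position and so fell just outside the 40 kb window, and the Hmx1 interval itself crossed the window edge, reaching 45799 bp from the position.

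The Hmx2 and Hmx3 locus was the most isolated of the 3, and Hmx1 the least. At Hmx2 and Hmx3 the nearest other interval of the same list was 1088 kb away for FLAG, 705 kb for H3K27me3 and 1084 kb for EZH2. At Uncx it was 351 kb away for FLAG, 209 kb for H3K27me3 and 207 kb for EZH2. At Hmx1 it was 99.4 kb away for FLAG, 22.2 kb for H3K27me3 and 93.4 kb for EZH2. The medians of the lists were 771 kb for FLAG, 408 kb for H3K27me3 and 470 kb for EZH2, so Hmx2 and Hmx3 lay above the median in each list and Uncx and Hmx1 below it. The EZH2 list has only 2 intervals on chromosome 7 past Hmx2 and Hmx3, against 6 for FLAG and 16 for H3K27me3, so the locus lies before the end of each list on this chromosome.

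By gene order in the GRCm38.p6 table, the nearest protein-coding genes are Zfand2a on the lower side of Uncx and Micall2 on the higher side, Adra2c and Cpz for Hmx1, and Acadsb and Bub3 for the adjacent pair Hmx3 and Hmx2. These names give the setting only, since no mm9 annotation was used to place them relative to the intervals.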

How the data were processed

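Chromatin immunoprecipitation libraries of mouse embryonic fibroblasts were sequenced, and groups were taken from sample titles, giving 15 groups of 1 library. Chromatin was cut with micrococcal nuclease, per the labels' protocols. Bowtie 1.0.0 and deepTools were used with build mm9, per the submitters' processing notes. No source read for this work names the peak caller, thresholds, control or depth. The lists deposited by the authors give only start and end positions in bp, with no score, 1 list per library, on a 200 bp grid. Printed starts are counted from 1, and width is end minus start as deposited.

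The widest interval of each list within 40 kb of a gene position was measured with Python 3.11.15 and numpy 2.4.6. Ranks are within a list. One-to-one pairs shared at least 1 bp and overlapped nothing else of either list. Grid ranges move both widths by 1 step in opposite directions. Shares in alternatives were judged against exact Clopper-Pearson 95% intervals, which cover counting error only. No test was made, because each group has 1 library and the loci were chosen from these widths. The computations were tested on simulated intervals. Promoter windows of 300 unambiguous bases came from RefSeq (GRCm38.p6), and coordinates were not converted; the window of 1 member is not reported here. The members and lists were chosen with earlier results of these data known. All 4 members are named, with the widest FLAG interval elsewhere and the nearest genes on each side. Alternatives were windows of 20 and 100 kb, joining within 5 kb, all bases of the window, 50% overlap and leaving out the narrowest quartile.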

Additional observations from a re-analysis of the deposited data

How the results depend on the processing

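No paired analysis was possible because each group has 1 library and the result comes from no test. Joining neighbours within 5 kb could not change the FLAG to EZH2 width ratio at any of the 3 loci. The nearest other FLAG or EZH2 interval lay at least 93.4 kb away. Nor could counting all bases in the window change it, since the FLAG and EZH2 intervals lay wholly inside. Counting only bases within the 40 kb window cut off the H3K27me3 interval of Hmx1, whose ratio to EZH2 became 1.71 in place of 1.91, with FLAG to H3K27me3 at 0.433 in place of 0.388. A window of 100 kb held 4 H3K27me3 intervals at Hmx1 in place of 1. With the narrowest quartile left out, 8.33% of H3K27me3 intervals were at least as wide as Uncx in place of 6.22%, and 15.1% as wide as Hmx2 and Hmx3 in place of 11.3%, since fewer intervals remain. With neighbours joined, 0.467% of FLAG intervals were at least as wide as Uncx in place of 0.228%, and 2.06% of EZH2 intervals in place of 1.33%. The other 16 values without the narrowest quartile stayed within the counting error or were identical, as did all 18 with neighbours joined, all 9 with 50% overlap and all 9 with a 20 kb window. Many of these values could not have moved. Leaving out the narrowest quartile kept every interval of the loci and only shortened the lists, and joining left the widths at the loci as they were. The loci were chosen by FLAG width, so the counting error of their FLAG ranks does not measure stability. Positions without scores, a 200 bp grid and unknown depth limit every width, and replicate error is unknown.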
